A study of Homo sapiens with 15 samples.

Results

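The genes described here are 56 genes that serve DNA repair or the signalling of DNA damage. They were taken by name and sorted into 8 pathways by textbook role, and the rule uses no measured value. The list was still chosen with earlier results of these data known. They are 9 genes of the Fanconi anaemia pathway, 12 of homologous recombination, 5 of damage signalling, 7 of break-end processing, resection and helicases, 5 of non-homologous end joining, 3 of mismatch repair, 7 of base excision and single-strand break repair and 8 of nucleotide excision repair. All 56 were found among the 60649 genes of the count table and all 56 passed the filter on low counts, which left 23711 genes to test. Of the 56, 53 averaged at least 10 CPM, the count scaled to library size.

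A break through both strands of DNA is repaired either by non-homologous end joining, which ligates the ends directly, or by homologous recombination, which trims the ends and copies the lost stretch from the sister chromatid and therefore acts in S and G2 phase. The Fanconi anaemia proteins unhook crosslinks between the strands. Mismatch, base excision and nucleotide excision repair remove, in that order, replication errors, small base lesions and bulky adducts such as those made by ultraviolet light. Many genes of recombination, crosslink repair and mismatch repair are transcribed most in dividing cells.

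Messenger RNA was sequenced from K562 cells, an established human line of chronic myeloid leukaemia with erythroid features. The 5 groups of 3 biological replicates were untreated cells and cells kept for 24 h with 0.15, 0.25 or 0.5 µM or with 1 µM martinostat, an inhibitor of histone deacetylases. All came from a single line in culture, and whether untreated cells received the solvent of the drug is not given in the sources used here. In bulk RNA, fewer cells of one kind and less RNA of a gene per cell cannot be told apart. Values over doses are given from the lowest to the highest unless stated otherwise, and every dose was compared with the same 3 untreated libraries.

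Library totals ran from 23755510 to 32805574 counts. CPM refer to library sizes corrected with TMM factors (trimmed mean of M values), which were 0.784 to 0.828 in the untreated and 0.950 to 1.284 in the treated libraries. Replicates 3 at 0.25 and 0.5 µM stood apart on a principal component that held 4.47% of the variance, at 70.1 and 75.4, with all other libraries lower. Untreated cells expressed the erythroid genes GATA1, KLF1 and HBG2 at means of 328, 406 and 368 CPM, and markers of other blood cells were low, with the B-cell gene MS4A1 at 0 and the T-cell gene CD3D at 3.53 CPM. Of 6 tested markers of other blood cells, 3 had risen and 1 had fallen at 1 µM, where the myeloid gene ITGAX was at 10.3 CPM from 0.156. At 1 µM, 8 of 10 erythroid and megakaryocytic markers had fallen and 1 had risen, and GATA1, the main erythroid transcription factor, was at 18.9 CPM.

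Most of the repair genes fell, and few rose. At 0.15 µM, 36 of the 56 (64.3%) were lower than in untreated cells and 3 (5.36%) were higher, where 19.4% of all tested genes were called lower and 31.9% higher. The corresponding counts were 42 lower (75%) and 4 higher (7.14%) at 0.25 µM, against 24.8% and 37.4% of all tested genes. At 0.5 µM, 37 (66.1%) were lower and 6 (10.7%) higher, against 27.6% and 39.4% of all genes. At 1 µM, again 37 were lower and 6 higher, against 27.5% and 38.8%. A call was a Benjamini-Hochberg adjusted p under 0.05 in edgeR's quasi-likelihood test over all tested genes. In every called repair gene, at every dose, all 3 treated libraries lay outside the range of the 3 untreated ones.

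The repair genes are better expressed than most genes, and genes that averaged 10 CPM or more fell more often than the rest. Among these 10128 genes, 40.2%, 48.7%, 48.7% and 48.4% were called lower over the doses and 21.1%, 22%, 26.6% and 26.5% were called higher. The median log2 fold change of the 56 genes was -0.66, -0.96, -0.96 and -0.85, beside -0.28, -0.40, -0.37 and -0.39 for the genes of at least 10 CPM and 0.28, 0.32, 0.34 and 0.32 for all tested genes. Of the 56 genes, 32 were lower at all 4 doses and 2, TP53BP1 and DDB2, were higher at all 4. Another 7, FANCF, RAD51B, RAD52, RAD50, LIG4, OGG1 and ERCC5, were called at no dose. No gene was called in both directions in this fit, but 5 were under some of the 26 alternatives: FANCE in 13, RAD51D in 7, and LIG4, PMS2 and XRCC1 in 1 each. At 1 µM, 24 genes were lower by more than 2-fold and 0 were higher by more than 2-fold. These patterns over the doses and the counts over 2-fold were not counted over all tested genes, so no background stands beside them.

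How many genes fall rather than rise depends on the scaling of the libraries. With library totals in place of TMM, the median over all tested genes at 1 µM moved from 0.32 to 0.67, and 31 repair genes were lower and 11 higher. Of all 23711 tested genes, 4777 were then lower and 10808 higher, from 6514 and 9193 with TMM. At 0.15 µM the same scaling left 21 repair genes lower and 8 higher. Over all tested genes it left 2118 lower and 9582 higher there, from 4591 and 7557. With TMM factors taken from genes of at least 10 CPM alone, the median of all genes at 1 µM was 0.71, with 31 repair genes lower and 12 higher. Of all tested genes, 4691 were lower and 11163 higher under these factors. The additional genes called higher at 1 µM were FANCE, RAD51B, RAD52, XRCC1 and OGG1 under both scalings and PMS2 under the latter. The genes called lower at 1 µM stayed at or below 0 under both. Replicates 3 at 0.25 and 0.5 µM were the doubted libraries: without both, 39, 42, 36 and 36 repair genes were lower and 5, 5, 10 and 9 higher over the doses. Of the 24200 genes then tested, 5456, 6029, 6658 and 6900 were lower and 8390, 9071, 9306 and 10020 higher.

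**Figure D1:**
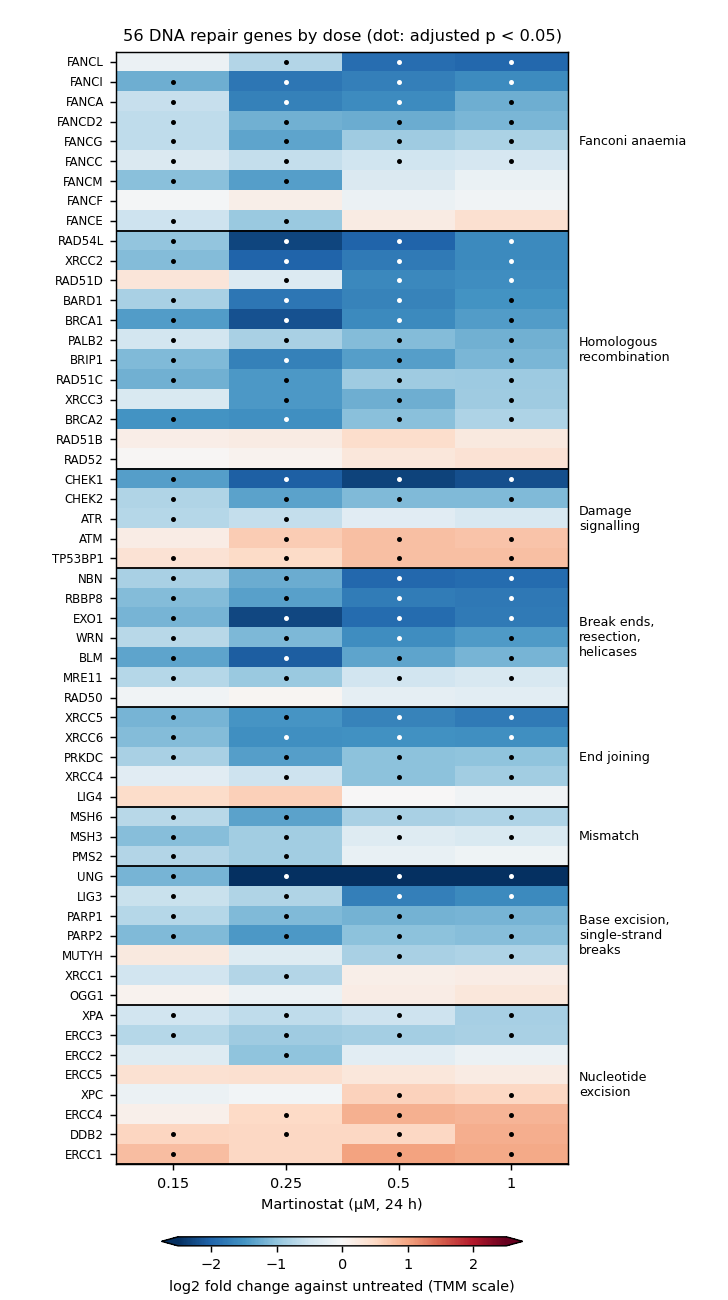
Log2 fold change against untreated cells (colour, scale limited to 2.5 on either side) of the 56 repair genes in rows, grouped by pathway, at the 4 martinostat concentrations in columns, from 0.15 to 1 µM, each from 3 against 3 libraries. Dots mark an adjusted p under 0.05. Most rows are blue at all doses, and the 6 genes called higher at 1 µM are TP53BP1, ATM, XPC, ERCC4, DDB2 and ERCC1.

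In the Fanconi anaemia pathway, 7, 8, 6 and 6 of 9 genes fell over the doses and 0 rose, with median log2 fold changes of -0.57, -1.21, -0.89 and -0.80. FANCL, the ubiquitin ligase of the core complex (ENSG00000115392.12, hg38 chr2:58159243-58241410), had the lowest value at 1 µM. FANCL was at 22.4, 28.2 and 22.6 CPM in untreated cells, and at 20.4, 23.5 and 22.0 CPM at 0.15 µM, 10.9, 14.6 and 18.5 CPM at 0.25 µM, 5.26, 5.86 and 8.27 CPM at 0.5 µM and 6.03, 5.32 and 7.36 CPM at 1 µM. Its libraries overlapped between untreated cells and 0.15 µM, and all libraries at 0.5 and 1 µM lay below all others. For FANCL the log2 fold changes were -0.15, -0.73, -1.91 and -1.97 with SE 0.21 to 0.22 (edgeR, Benjamini-Hochberg adjusted p = 0.562, 0.00484, 2.77e-07 and 1.89e-07). Between 0.25 and 0.5 µM FANCL fell by 1.18 on the log2 scale (SE 0.21; edgeR, Benjamini-Hochberg adjusted p = 0.00032).

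FANCE, a core complex subunit that contacts FANCD2 (ENSG00000112039.5, hg38 chr6:35452338-35467104), took another course. It was at 40.2, 38.5 and 38.3 CPM in untreated cells, and at 28.0, 26.6 and 26.8 CPM at 0.15 µM, 20.6, 24.5 and 16.9 CPM at 0.25 µM, 53.8, 52.3 and 29.4 CPM at 0.5 µM and 49.4, 59.5 and 46.1 CPM at 1 µM. The libraries at the 2 lower doses were all below the untreated ones, whereas at 1 µM all 3 were above them, and at 0.5 µM replicate 3 lay below and the others above. For FANCE the log2 fold changes were -0.52, -0.92, 0.21 and 0.41 with SE 0.19 (edgeR, Benjamini-Hochberg adjusted p = 0.0295, 0.000449, 0.343 and 0.069). Under 11 of the 26 alternatives FANCE was no longer called at 0.15 µM, and leaving out any 1 of the 6 libraries compared was enough, at -0.50 to -0.55. FANCE was called higher at 1 µM in 13 of the 26 (0.47 with RLE scaling, 0.76 with library totals and 0.80 with the TMM factors of the well expressed genes) and at 0.5 µM in 7. FANCM, the helicase that recruits the core complex to DNA, also had its lowest mean at 0.25 µM, with 27.8 CPM untreated and 13.5, 10.7, 21.7 and 25.0 CPM over the doses, and was called lower at 0.15 and 0.25 µM only.

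FANCA, another core complex subunit (ENSG00000187741.15, hg38 chr16:89726683-89816977), was one of the genes that fell by more than 2-fold between the lowest doses. It was at 115, 117 and 111 CPM in untreated cells, and at 72.1, 81.1 and 78.7 CPM at 0.15 µM, 39.8, 36.8 and 29.6 CPM at 0.25 µM, 38.4, 40.2 and 36.3 CPM at 0.5 µM and 52.2, 45.7 and 48.4 CPM at 1 µM. No treated library reached the lowest untreated one, and every library at 0.25 µM or above lay below every library at 0.15 µM. For FANCA the log2 fold changes were -0.57, -1.69, -1.58 and -1.23 with SE 0.13 (edgeR, Benjamini-Hochberg adjusted p = 0.00118, 3.16e-09, 4.35e-09 and 1.15e-07). Exons of ZNF276 on the opposite strand cover 19.6% of the exon bases of FANCA, and it is not stated whether the counting used strand.

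FANCI and FANCD2, the pair that the complex marks with ubiquitin, fell at all 4 doses. FANCI, the most abundant of the pathway, averaged 245 ± 6.03 CPM untreated and 82.8 ± 8.57 CPM at 1 µM (SD, n = 3), and FANCD2 went from 57.6 to 26.0 CPM. FANCG and FANCC, both core subunits, also fell at all 4 doses, to -0.80 and -0.42 at 1 µM. At 0.15 µM the call of FANCC (-0.37) was lost without replicates 2 or 3 of the untreated or of the treated cells, at -0.34 to -0.37. FANCC was called at no dose with library totals (-0.01, -0.07, -0.13 and -0.07). The same held with the TMM factors of the well expressed genes (-0.10, -0.17, -0.08 and -0.03). The call of FANCG at 0.15 µM was lost without untreated replicate 1, at -0.57, and with library totals, at -0.28. Its call at 1 µM was lost with the TMM factors of the well expressed genes, at -0.41. FANCF, an adaptor within the complex, was called at no dose, with means of 25.8 CPM untreated and 25.1, 28.4, 23.3 and 24.3 CPM over the doses.

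In homologous recombination, 8, 10, 10 and 10 of 12 genes fell and 0 rose, with medians of -0.90, -1.49, -1.29 and -1.18. RAD54L, a motor protein that helps the invading strand find its partner (ENSG00000085999.13, hg38 chr1:46246461-46278480), had the lowest value at 1 µM. It was at 66.3, 72.8 and 67.3 CPM in untreated cells, and at 31.5, 37.0 and 35.1 CPM at 0.15 µM, 16.6, 15.4 and 10.1 CPM at 0.25 µM, 20.4, 19.1 and 11.9 CPM at 0.5 µM and 23.9, 21.2 and 22.9 CPM at 1 µM. All libraries of the 4 doses were below all untreated libraries, and at 0.25 µM all were below every library at 0.15 µM. For RAD54L the log2 fold changes were -0.99, -2.29, -2.01 and -1.60 with SE 0.19 to 0.20 (edgeR, Benjamini-Hochberg adjusted p = 0.000259, 1.34e-08, 4.28e-08 and 7.12e-07). At the other end of the pathway, RAD52, an annealing protein (ENSG00000002016.18, hg38 chr12:911736-990053), was at 9.20, 12.2 and 8.73 CPM in untreated cells, and at 11.7, 9.53 and 9.29 CPM at 0.15 µM, 10.2, 10.4 and 11.4 CPM at 0.25 µM, 12.0, 10.0 and 14.6 CPM at 0.5 µM and 13.8, 13.1 and 11.8 CPM at 1 µM. Treated and untreated libraries of RAD52 overlapped at all 4 doses. For RAD52 the log2 fold changes were 0.02, 0.09, 0.29 and 0.36 with SE 0.19 (edgeR, Benjamini-Hochberg adjusted p = 0.945, 0.706, 0.183 and 0.0929).

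BRCA1 and its partner BARD1, which promote end resection and the loading of the recombinase, fell at all 4 doses. BRCA1 was at 122 CPM in untreated cells and at 46.3, 27.0, 40.5 and 46.8 CPM over the doses, and BARD1 at 28.8 CPM and then 16.4, 8.28, 9.07 and 10.1 CPM. PALB2, which bridges BRCA1 and BRCA2, fell at all 4 doses, from 36.4 CPM untreated to means of 26.6, 20.7, 17.1 and 15.7 CPM. Its call at 0.15 µM (-0.45) was lost without untreated replicates 2 or 3 (-0.43 and -0.42) or replicate 3 at 0.15 µM (-0.34). With library totals the calls of PALB2 at 0.15 and 0.25 µM were both lost (-0.08 and -0.27). The TMM factors of the well expressed genes also lost both (-0.18 and -0.37). BRCA2, which loads the recombinase, was at 49.2 ± 3.26 CPM untreated and 17.6 ± 7.75, 17 ± 6.64, 23.8 ± 6.22 and 28.6 ± 2.74 CPM over the doses (SD, n = 3). At 1 µM its log2 fold change of -0.78 (edgeR, Benjamini-Hochberg adjusted p = 0.0418) missed the threshold without any 1 of the 6 libraries compared, without replicate 3 at 0.25 µM and without replicate 2 at 0.5 µM, at -0.71 to -0.83. In all, 15 of 26 alternatives lost this call. Among them were RLE scaling (-0.72), library totals (-0.43) and the TMM factors of the well expressed genes (-0.39). BRIP1, the helicase that binds BRCA1, fell at all 4 doses, from 30.5 to 13.7 CPM at 1 µM.

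The paralogs that assist the recombinase did not follow a single course. XRCC2 and RAD51C fell at all 4 doses, from 108 and 58.7 CPM untreated to 35.7 and 31.2 CPM at 1 µM. RAD51B, at 9.19 CPM untreated and 10.3 to 12.4 CPM over the doses, was called at none, but it was called higher at 0.5 µM in 12 of 26 alternatives (0.50 with RLE scaling, 0.78 with library totals). RAD51D was at 25.7, 24.0 and 23.9 CPM in untreated cells, and at 27.7, 30.4 and 32.6 CPM at 0.15 µM, 19.1, 17.2 and 21.4 CPM at 0.25 µM, 7.99, 7.45 and 8.67 CPM at 0.5 µM and 8.45, 8.19 and 8.54 CPM at 1 µM. All libraries at 0.15 µM were above the untreated range and all at 0.5 and 1 µM were below it. For RAD51D the log2 fold changes were 0.30, -0.35, -1.61 and -1.55 with SE 0.14 to 0.15 (edgeR, Benjamini-Hochberg adjusted p = 0.0798, 0.0353, 1.26e-08 and 1.99e-08). The call at 0.25 µM was lost without any 1 of the untreated libraries, replicate 3 at 0.15 µM, or replicates 1 or 2 at 0.25 µM, at -0.28 to -0.38, and with library totals the value there was 0.18. At 0.15 µM RAD51D was called higher in 7 of 26 alternatives, at 0.66 with library totals.

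XRCC3, the partner of RAD51C (ENSG00000126215.14, hg38 chr14:103697609-103715504), was at 34.4, 32.0 and 29.4 CPM in untreated cells, and at 27.5, 20.8 and 24.9 CPM at 0.15 µM, 15.1, 10.9 and 9.59 CPM at 0.25 µM, 13.3, 15.8 and 12.0 CPM at 0.5 µM and 19.3, 16.5 and 16.2 CPM at 1 µM. The libraries at 0.25 µM and above lay below all those of untreated cells and of 0.15 µM. For XRCC3 the log2 fold changes were -0.39, -1.43, -1.22 and -0.88 with SE 0.18 (edgeR, Benjamini-Hochberg adjusted p = 0.074, 1.63e-06, 7.92e-06 and 0.000259). Exons of KLC1 on the opposite strand cover 76.7% of the exon bases of XRCC3, so its counts are uncertain.

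Among the signalling genes, 3, 3, 2 and 2 of 5 fell and 1, 2, 2 and 2 rose, with medians of -0.71, -0.59, -0.28 and -0.40. At 1 µM this was 40% lower and 40% higher, beside 27.5% and 38.8% of all tested genes. Of genes averaging at least 10 CPM, 48.4% were lower and 26.5% higher at 1 µM, with a median of -0.39, near that of the signalling genes. CHEK1, the checkpoint kinase that ATR activates (ENSG00000149554.14, hg38 chr11:125625163-125676255), was at 134, 155 and 150.4 CPM in untreated cells, and at 55.1, 55.3 and 58.6 CPM at 0.15 µM, 35.2, 36.4 and 35.1 CPM at 0.25 µM, 31.0, 37.2 and 20.4 CPM at 0.5 µM and 30.3, 32.9 and 32.2 CPM at 1 µM. All treated libraries lay below all untreated ones, and the highest of them was at 58.6 CPM. For CHEK1 the log2 fold changes were -1.38, -2.04, -2.31 and -2.20 with SE 0.16 to 0.17 (edgeR, Benjamini-Hochberg adjusted p = 1.34e-06, 6.33e-09, 7.55e-10 and 1.38e-09). CHEK2, the checkpoint kinase downstream of ATM, fell at all 4 doses as well, from 27.6 to 12.8 CPM at 1 µM. ATR, the kinase that senses single-stranded DNA, was lower at 0.15 and 0.25 µM (-0.71 and -0.59) and not called at 0.5 and 1 µM (-0.28 and -0.40), and its call at 0.25 µM was lost without replicate 1 of that dose, at -0.40.

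TP53BP1, which shields break ends from resection and favours end joining (ENSG00000067369.14, hg38 chr15:43403061-43510728), rose. It was at 39.9, 43.6 and 37.1 CPM in untreated cells, and at 44.8, 56.9 and 53.7 CPM at 0.15 µM, 52.4, 53.3 and 62.0 CPM at 0.25 µM, 64.2, 64.5 and 75.0 CPM at 0.5 µM and 68.6, 65.7 and 69.9 CPM at 1 µM. Each treated library was above the highest untreated one. For TP53BP1 the log2 fold changes were 0.37, 0.48, 0.76 and 0.76 with SE 0.13 (edgeR, Benjamini-Hochberg adjusted p = 0.0276, 0.0044, 5.98e-05 and 5.71e-05). The call at 0.15 µM was lost without untreated replicates 1 or 3 (0.36 and 0.31) or replicates 2 or 3 at 0.15 µM (0.29 and 0.33), and exons of TUBGCP4 on the opposite strand cover 28.8% of the exon bases. ATM, the kinase that responds to double-strand breaks, was at 53.0, 55.7 and 47.9 CPM in untreated cells, and at 70.7, 69.5 and 38.1 CPM at 0.15 µM, 63.1, 76.9 and 102 CPM at 0.25 µM, 66.7, 82.8 and 113 CPM at 0.5 µM and 85.6, 83.9 and 87.7 CPM at 1 µM. Its replicate 3 was the lowest of its group at 0.15 µM and the highest at 0.25 and 0.5 µM. ATM was called higher at 0.25, 0.5 and 1 µM (0.63, 0.75 and 0.72), and at 0.25 µM the call was lost without replicate 3 of that dose (0.45) or untreated replicates 1 or 3 (0.63 and 0.56).

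Of the genes that process break ends, 6 of 7 fell at every dose and 0 rose, with medians of -0.81, -1.25, -1.55 and -1.41. NBN, RAD50 and MRE11 encode the complex that binds broken ends. NBN (ENSG00000104320.14) had the lowest value of the pathway and was at 121, 141 and 139 CPM in untreated cells, and at 88.2, 83.8 and 57.1 CPM at 0.15 µM, 47.0, 63.9 and 57.4 CPM at 0.25 µM, 32.2, 36.1 and 34.9 CPM at 0.5 µM and 36.0, 29.5 and 40.7 CPM at 1 µM. No treated library reached the untreated range, and those at 0.5 and 1 µM were all below those at the 2 lower doses. For NBN the log2 fold changes were -0.81, -1.25, -1.96 and -1.92 with SE 0.17 (edgeR, Benjamini-Hochberg adjusted p = 0.000572, 3.97e-06, 1.11e-08 and 1.41e-08). RAD50 (ENSG00000113522.14, hg38 chr5:132556019-132646349) was at 14.3, 12.6 and 15.4 CPM in untreated cells, and at 16.7, 13.6 and 9.50 CPM at 0.15 µM, 11.2, 18.1 and 14.1 CPM at 0.25 µM, 10.7, 14.8 and 10.8 CPM at 0.5 µM and 11.5, 10.8 and 12.8 CPM at 1 µM. Its treated libraries overlapped the untreated ones at all 4 doses. For RAD50 the log2 fold changes were -0.09, 0.04, -0.22 and -0.27 with SE 0.22 (edgeR, Benjamini-Hochberg adjusted p = 0.769, 0.895, 0.389 and 0.291). An unnamed gene on the same strand covers 76.9% of the exon bases of RAD50 in the annotation, so its low count is uncertain, and MRE11 was at 67.8 CPM untreated and 41.0, 35.9, 49.0 and 51.5 CPM over the doses.

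EXO1, a nuclease of resection and of mismatch repair (ENSG00000174371.17, hg38 chr1:241847967-241895148), was at 168, 205 and 206 CPM in untreated cells, and at 80.2, 96.2 and 82.6 CPM at 0.15 µM, 39.6, 44.9 and 35.2 CPM at 0.25 µM, 59.5, 64.5 and 28.8 CPM at 0.5 µM and 54.8, 53.6 and 62.4 CPM at 1 µM. All treated libraries lay below all untreated ones, and replicate 3 at 0.5 µM was below the others of its group. For EXO1 the log2 fold changes were -1.16, -2.28, -1.92 and -1.76 with SE 0.21 to 0.22 (edgeR, Benjamini-Hochberg adjusted p = 0.000179, 6.61e-08, 3.32e-07 and 9.62e-07). RBBP8, which starts resection, and the helicases BLM and WRN fell at all 4 doses. Their untreated means of 69.4, 88.0 and 111 CPM stood at 20.1, 39.4 and 41.8 CPM at 1 µM.

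In non-homologous end joining, 3, 4, 4 and 4 of 5 genes fell and 0 rose, with medians of -0.82, -1.38, -1.03 and -1.0. Per kilobase of their canonical transcript, XRCC6 and XRCC5, which form the Ku ring that slides onto ends, had the highest untreated levels of the 56 genes, at 358 and 316 CPM per kilobase. XRCC5 (ENSG00000079246.16, hg38 chr2:216107464-216206303) was at 923, 1125 and 1151 CPM in untreated cells, and at 459.5, 481 and 494 CPM at 0.15 µM, 358, 432 and 352 CPM at 0.25 µM, 354, 377 and 273 CPM at 0.5 µM and 313, 285 and 339 CPM at 1 µM. The highest treated library, at 494 CPM, was below the lowest untreated one, at 923 CPM. For XRCC5 the log2 fold changes were -1.16, -1.48, -1.67 and -1.77 with SE 0.16 (edgeR, Benjamini-Hochberg adjusted p = 6.72e-06, 2.06e-07, 2.94e-08 and 1.37e-08). XRCC6 went from 759 ± 58.2 to 263 ± 13.8 CPM at 1 µM, and PRKDC, the kinase that Ku recruits, from 1372 ± 107 to 687 ± 105 CPM (SD, n = 3), and both fell at all 4 doses.

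LIG4, the ligase that seals the ends (ENSG00000174405.14, hg38 chr13:108207439-108218368), was called at no dose. It was at 8.18, 7.26 and 6.65 CPM in untreated cells, and at 10.8, 11.4 and 8.16 CPM at 0.15 µM, 6.91, 8.02 and 18.2 CPM at 0.25 µM, 4.59, 5.36 and 12.0 CPM at 0.5 µM and 6.85, 7.56 and 6.52 CPM at 1 µM. Replicate 3 was the highest at 0.25 and 0.5 µM, and the groups overlapped at all 4 doses. For LIG4 the log2 fold changes were 0.46, 0.59, 0.01 and -0.08 with SE 0.35 to 0.36 (edgeR, Benjamini-Hochberg adjusted p = 0.299, 0.157, 0.988 and 0.861). XRCC4, the scaffold of LIG4, was called lower from 0.25 µM on, at -0.52, -1.03 and -0.87, and its call at 0.25 µM was lost without untreated replicate 3 (-0.41) or replicates 1 or 3 at 0.25 µM (-0.43 and -0.45).

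The 3 mismatch repair genes fell at 0.15 and 0.25 µM and 2 of them at 0.5 and 1 µM, with medians of -0.73, -0.87, -0.32 and -0.39. Genes averaging at least 10 CPM had medians of -0.28, -0.40, -0.37 and -0.39 over the doses. MSH6, which recognises single mismatches (ENSG00000116062.17, hg38 chr2:47695530-47810063), was at 277, 281 and 289.5 CPM in untreated cells, and at 167, 183 and 173 CPM at 0.15 µM, 106, 122 and 109 CPM at 0.25 µM, 164, 179 and 135 CPM at 0.5 µM and 170.4, 139 and 184 CPM at 1 µM. Its lowest group was 0.25 µM, where all 3 libraries lay below those of each other group. For MSH6 the log2 fold changes were -0.69, -1.33, -0.82 and -0.78 with SE 0.14 (edgeR, Benjamini-Hochberg adjusted p = 0.000455, 2.18e-07, 4.74e-05 and 8.49e-05). PMS2, an endonuclease subunit (ENSG00000122512.16, hg38 chr7:5970925-6009130), was at 39.0, 37.3 and 41.9 CPM in untreated cells, and at 23.1, 24.7 and 23.6 CPM at 0.15 µM, 20.4, 24.2 and 20.7 CPM at 0.25 µM, 34.1, 36.4 and 32.9 CPM at 0.5 µM and 38.9, 34.9 and 36.3 CPM at 1 µM. The libraries of PMS2 at the 2 lower doses were below all others, and those at 1 µM overlapped the untreated ones. For PMS2 the log2 fold changes were -0.73, -0.86, -0.19 and -0.10 with SE 0.12 to 0.13 (edgeR, Benjamini-Hochberg adjusted p = 8.87e-05, 9.95e-06, 0.177 and 0.483). PMS2 has near-identical copies in the genome, so its counts are uncertain, and it was called higher at 1 µM (0.29) with the TMM factors of the well expressed genes. MSH3, which recognises small loops, was called lower at all 4 doses (-1.06, -0.87, -0.32 and -0.39). Without untreated replicate 2 or replicate 2 at 1 µM the call of MSH3 at 1 µM was lost (-0.33 each), and at 0.5 µM it was lost without any 1 of 6 libraries (untreated replicates 2 and 3, replicate 3 at 0.15 and at 0.25 µM, and replicates 1 and 3 at 0.5 µM), at -0.26 to -0.33. In all, 16 of 26 alternatives lost the 0.5 µM call, with RLE scaling and DESeq2 at -0.25 each, and with library totals and the TMM factors of the well expressed genes the sign turned, to 0.06 and 0.10.

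Base excision and single-strand break repair held the largest fall of the 56 genes. In this pathway 4, 5, 5 and 5 of 7 genes fell and 0 rose, with medians of -0.56, -0.76, -1.02 and -1.07. UNG, the glycosylase that removes uracil from DNA (ENSG00000076248.11, hg38 chr12:109097597-109126725), was at 121, 127 and 133 CPM in untreated cells, and at 52.3, 55.7 and 61.8 CPM at 0.15 µM, 15.3, 17.7 and 12.9 CPM at 0.25 µM, 12.9, 11.2 and 6.04 CPM at 0.5 µM and 11.8, 12.5 and 11.4 CPM at 1 µM. The groups of untreated cells, 0.15 µM and 0.25 µM did not overlap, and the libraries at 0.5 and 1 µM lay at or below 12.9 CPM. For UNG the log2 fold changes were -1.17, -3.05, -3.67 and -3.42 with SE 0.20 to 0.22 (edgeR, Benjamini-Hochberg adjusted p = 6.47e-05, 5.99e-10, 3.94e-11 and 8.51e-11), and at 1 µM UNG was 10.7-fold lower than in untreated cells. OGG1, the glycosylase for oxidised guanine (ENSG00000114026.22, hg38 chr3:9749944-9788219), was at 27.5, 23.6 and 20.4 CPM in untreated cells, and at 26.1, 23.3 and 26.5 CPM at 0.15 µM, 26.1, 22.0 and 16.3 CPM at 0.25 µM, 32.6, 28.3 and 20.4 CPM at 0.5 µM and 27.9, 34.5 and 24.9 CPM at 1 µM. Its libraries overlapped the untreated ones at all 4 doses. For OGG1 the log2 fold changes were 0.09, -0.15, 0.18 and 0.29 with SE 0.20 (edgeR, Benjamini-Hochberg adjusted p = 0.734, 0.522, 0.421 and 0.204).

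PARP1 and PARP2, which mark strand breaks with ADP-ribose chains, fell at all 4 doses, from 802 to 356 and from 30.8 to 14.7 CPM at 1 µM. LIG3, the ligase of this pathway, fell at all 4 doses, and its scaffold XRCC1 was called lower at 0.25 µM only (-0.73), a call lost without replicate 3 of that dose (-0.51). The means of LIG3 were 101 CPM untreated and 68.7, 59.6, 31.0 and 33.5 CPM over the doses, and those of XRCC1 were 36.8 and 26.5, 22.3, 41.0 and 41.7 CPM. MUTYH, the glycosylase that removes adenine opposite oxidised guanine, was at low levels of 4.36 CPM untreated and 5.17, 3.48, 2.48 and 2.53 CPM over the doses. It was called lower at 0.5 and 1 µM (-0.81 and -0.78). At 0.5 µM the call was lost without replicate 2 of the untreated or treated cells (-0.70 and -0.64), and that at 1 µM without untreated replicates 2 or 3 (-0.67 and -0.80) or replicates 2 or 3 at 1 µM (-0.67 and -0.76).

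In nucleotide excision repair, of 8 genes, 2, 3, 2 and 2 fell and 2, 2, 4 and 4 rose, and the medians were -0.01, 0.17, 0.40 and 0.35. At 1 µM this was 25% lower and 50% higher, beside 27.5% and 38.8% of all tested genes, whose median was 0.32. Of genes averaging at least 10 CPM, 48.4% were lower and 26.5% higher, with a median of -0.39. The shares of these 8 genes thus lay nearer to those of all tested genes than to those of well expressed genes. XPA, which verifies the damage (ENSG00000136936.11, hg38 chr9:97674909-97697340), had the lowest value at 1 µM and was at 22.5, 24.0 and 23.1 CPM in untreated cells, and at 15.7, 17.2 and 17.4 CPM at 0.15 µM, 11.9, 13.9 and 19.1 CPM at 0.25 µM, 15.1, 15.4 and 18.1 CPM at 0.5 µM and 13.3, 12.2 and 13.7 CPM at 1 µM. All treated libraries were below all untreated ones. For XPA the log2 fold changes were -0.47, -0.63, -0.52 and -0.83 with SE 0.17 (edgeR, Benjamini-Hochberg adjusted p = 0.0247, 0.00289, 0.0105 and 0.000252). The call at 0.15 µM was lost without untreated replicates 2 or 3 (-0.44 and -0.47) or replicates 1 or 2 at 0.15 µM (-0.42 and -0.48).

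ERCC1, a subunit of the nuclease that cuts 5′ of the damage (ENSG00000012061.16, hg38 chr19:45407334-45478828), had the highest value at 1 µM. It was at 43.9, 38.3 and 37.6 CPM in untreated cells, and at 67.9, 60.2 and 77.5 CPM at 0.15 µM, 71.3, 61.4 and 39.5 CPM at 0.25 µM, 115, 80.0 and 47.0 CPM at 0.5 µM and 68.2, 99.7 and 62.8 CPM at 1 µM. The spread was wide at 0.25 and 0.5 µM, where replicate 3 was the lowest, and at 0.25 µM the groups overlapped. For ERCC1 the log2 fold changes were 0.78, 0.52, 1.01 and 0.95 with SE 0.27 to 0.28 (edgeR, Benjamini-Hochberg adjusted p = 0.026, 0.109, 0.00408 and 0.00641). The 0.15 µM call was lost without untreated replicates 2 or 3 (0.75 and 0.74) or replicates 1 or 3 of that dose (0.79 and 0.68), and exons of POLR1G on the opposite strand cover 28.6% of the exon bases. ERCC4, the partner of ERCC1, rose from 18.1 CPM untreated to 25.4, 33.6 and 32.4 CPM at 0.25, 0.5 and 1 µM, and at 0.25 µM the call (0.49) was lost without replicate 2 of that dose (0.34).

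DDB2 and XPC, which find lesions made by ultraviolet light, also rose. DDB2 was at 8.83, 9.50 and 10.9 CPM in untreated cells, and at 13.8, 13.5 and 15.0 CPM at 0.15 µM, 16.6, 13.8 and 11.2 CPM at 0.25 µM, 15.7, 13.1 and 13.3 CPM at 0.5 µM and 16.2, 21.8 and 16.7 CPM at 1 µM. Its treated libraries were all above the untreated range. For DDB2 the log2 fold changes were 0.53, 0.51, 0.52 and 0.90 with SE 0.18 (edgeR, Benjamini-Hochberg adjusted p = 0.0186, 0.0192, 0.0155 and 0.000209). The 0.15 µM call was lost without untreated replicates 1 or 2 (0.46 and 0.51) or replicate 3 of that dose (0.48), at 0.25 µM without untreated replicates 1 or 2 (0.44 and 0.49) or replicate 1 of that dose (0.36), and at 0.5 µM without untreated replicate 1 (0.45) or replicate 1 of that dose (0.43). XPC was at 34.0 CPM untreated and 30.8, 32.4, 50.8 and 48.4 CPM over the doses, and was called higher at 0.5 and 1 µM (0.58 and 0.51). ERCC3, a helicase of the factor TFIIH, fell at all 4 doses, from 84.9 to 48.3 CPM at 1 µM, and ERCC2, the other helicase of TFIIH, was called lower at 0.25 µM only (-1.0). ERCC5, the nuclease that cuts 3′ of the damage, had the lowest untreated level of the 56 genes per kilobase, at 0.76 CPM, and was called at no dose. Genes on the opposite strand also cover part of the exon bases of RAD54L (19.9%), MSH6 (24.2%), XPC (24.6%), OGG1 (29%) and LIG3 (30.5%), and genes on the same strand part of those of MUTYH (31.6%) and ERCC5 (33%), so the counts of these genes may include or miss shared stretches.

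**Figure D2:**
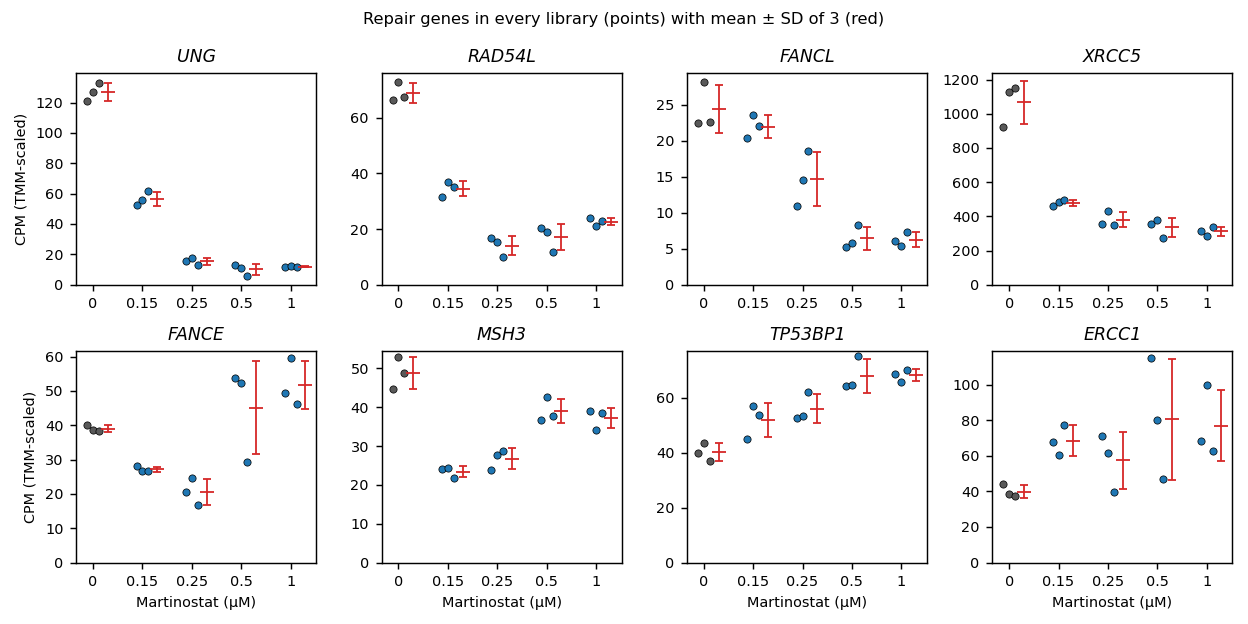
CPM of 8 repair genes (vertical axes, starting at 0) in each of the 15 libraries, by group on the horizontal axis. Points are libraries, replicates 1 to 3 from left to right (grey untreated, blue treated), and red marks are the group mean ± SD (n = 3). UNG falls from 121 to 133 CPM in untreated cells to 11.4 to 12.5 CPM at 1 µM, while FANCE is lowest at 0.25 µM and TP53BP1 and ERCC1 lie higher at 1 µM than in untreated cells.

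The doses were then compared with each other, where untreated cells do not enter the difference. From 0.15 to 0.25 µM, 17 repair genes (30.4%) fell and 0 rose, against 7.32% and 4.96% of all tested genes. Among the genes that did not pass, ERCC4 alone was higher at an unadjusted p under 0.05 in edgeR (1 gene, 0.37), and DESeq2 called 1 gene higher. The falls over 2-fold were those of UNG (-1.89), RAD54L (-1.30), FANCA (-1.13), EXO1 (-1.12) and XRCC3 (-1.04). The calls of BLM (-0.76), CHEK2 (-0.58), ERCC2 (-0.68), FANCG (-0.67) and FANCI (-0.57) at this step were each lost when certain single libraries were left out. They were lost at -0.58 to -0.73 for BLM (without replicates 2 or 3 at 0.15 µM or 3 at 0.25 µM), at -0.39 to -0.56 for CHEK2 (2 or 3 at either dose), at -0.44 to -0.75 for ERCC2 (1 or 3 at 0.15 µM, 2 or 3 at 0.25 µM, or 1 at 1 µM) and at -0.41 to -0.63 for FANCI (any at 0.15 µM, or 3 at 0.25 µM). For FANCG the call was lost without any 1 of 9 libraries (any untreated or 0.15 µM library, replicates 2 or 3 at 0.25 µM, or 1 at 1 µM), at -0.45 to -0.75.

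From 0.25 to 0.5 µM the directions split. At this step 7 genes (12.5%) fell and 13 (23.2%) rose, against 16% and 14.4% of all tested genes. The risers were FANCE (1.13), FANCM (1.02), BRCA1 (0.58), RAD51C (0.57), MRE11 (0.45), BLM (0.75), MSH6 (0.51), MSH3 (0.54), PMS2 (0.66), XRCC1 (0.88), XPC (0.65), ERCC2 (0.74) and ERCC4 (0.40). Of these, XPC and ERCC4 were called higher than untreated at 0.5 µM, and the other 11 had been called lower at 0.25 µM. The libraries at 0.25 µM enter both comparisons, and 42 of the 56 genes were called lower at that dose. The genes that fell were FANCL (-1.18), RAD51D (-1.26), NBN (-0.70), WRN (-0.43), XRCC4 (-0.51), LIG3 (-0.94) and UNG (-0.62). With only these 6 libraries in the fit, 4 genes fell and 4 rose. Over all tested genes, deviations of equal replicate numbers correlated between these doses (0.266, 0.268 and 0.579), which the unpaired fits leave out. Replicate 3 at 0.5 µM was the lowest of its group in 31 of the 56 genes. Other libraries were lowest about as often, with untreated replicate 1 in 32 and replicate 2 at 1 µM in 34. Replicate 3 at 0.25 µM was lowest in 24, and replicate 1 of that dose in 27.

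Several of these calls were lost when a single library was left out, which also leaves fewer libraries to test. Without replicate 2 at 0.5 µM, BLM (0.60), BRCA1 (0.41), ERCC2 (0.62), MSH6 (0.41), RAD51C (0.46), ERCC4 (0.36), WRN (-0.43) and XRCC4 (-0.53) were no longer called. Leaving out replicate 1 at 0.5 µM did the same for BRCA1 (0.50), RAD51C (0.51), ERCC4 (0.38), WRN (-0.36) and XRCC4 (-0.54), and leaving out replicate 3 at 0.5 µM for UNG (-0.35) and XRCC4 (-0.45). Without replicate 1 at 0.25 µM the calls of MRE11 (0.35), ERCC4 (0.29) and UNG (-0.62) were lost, that of UNG at an unchanged value. Without replicate 2 at 0.25 µM those of UNG (-0.50), WRN (-0.45) and XRCC4 (-0.36) were lost. Without replicate 3 at 0.25 µM those of RAD51C (0.43), ERCC4 (0.40) and WRN (-0.27) were lost. ERCC4 and WRN, whose adjusted p lay near the threshold, were also lost without libraries outside the comparison: ERCC4 (0.40) without any untreated library, any at 1 µM, or replicates 1 or 2 at 0.15 µM, and WRN (-0.43) without any untreated library or replicate 1 at 1 µM.

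From 0.5 to 1 µM, 0 repair genes were called, as were 0% lower and 0% higher of all tested genes. Their log2 differences ran from -0.31 (XPA) to 0.41 (RAD54L), with edgeR's unadjusted p under 0.05 for 372 genes of the whole table. The 3 repair genes among these 372 were RAD54L, DDB2 (0.38) and FANCA (0.35), all higher at 1 µM. Over the whole table DESeq2 also called 0 genes, with 445 at an unadjusted p under 0.05, and limma called 1. Of the 56 genes, 26 had their lowest group mean at 0.25 µM, a count that was not made over all tested genes.

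Between 0.15 and 1 µM, 20 repair genes (35.7%) were lower and 9 (16.1%) higher at 1 µM, against 23.1% and 21.5% of all tested genes. The largest falls were those of UNG (-2.25), RAD51D (-1.85), FANCL (-1.81), NBN (-1.11), LIG3 (-1.03) and MUTYH (-1.03). The 9 that rose were FANCE (0.93), FANCM (0.89), TP53BP1 (0.39), MRE11 (0.33), MSH3 (0.67), PMS2 (0.63), XRCC1 (0.65), XPC (0.65) and ERCC4 (0.72).

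Among the calls between 0.15 and 1 µM, 9 were lost when certain single libraries were left out, which also leaves fewer libraries to test. Leaving out replicate 2 at 0.15 µM lost the calls of BARD1 (-0.40), EXO1 (-0.52), RAD54L (-0.56), XRCC1 (0.60) and XRCC2 (-0.35). Leaving out replicate 1 at 0.15 µM lost TP53BP1 (0.30), XRCC1 (0.58) and XRCC3 (-0.40), and replicate 3 lost EXO1 (-0.59), PARP1 (-0.32) and XRCC3 (-0.43). Leaving out replicate 1 at 1 µM lost EXO1 (-0.57) and TP53BP1 (0.39, unchanged). Replicate 2 at 1 µM lost EXO1 (-0.56), RAD54L (-0.56), XRCC1 (0.61), XRCC2 (-0.46) and XRCC3 (-0.46). Replicate 3 at 1 µM lost TP53BP1 (0.37), XRCC2 (-0.51) and XRCC3 (-0.45). MRE11 (0.33) was lost without any 1 of 11 libraries, at 0.29 to 0.37: any untreated or 0.15 µM library, replicate 2 at 0.25 µM, replicates 1 or 2 at 0.5 µM, or replicates 1 or 3 at 1 µM.

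**Figure D3:**
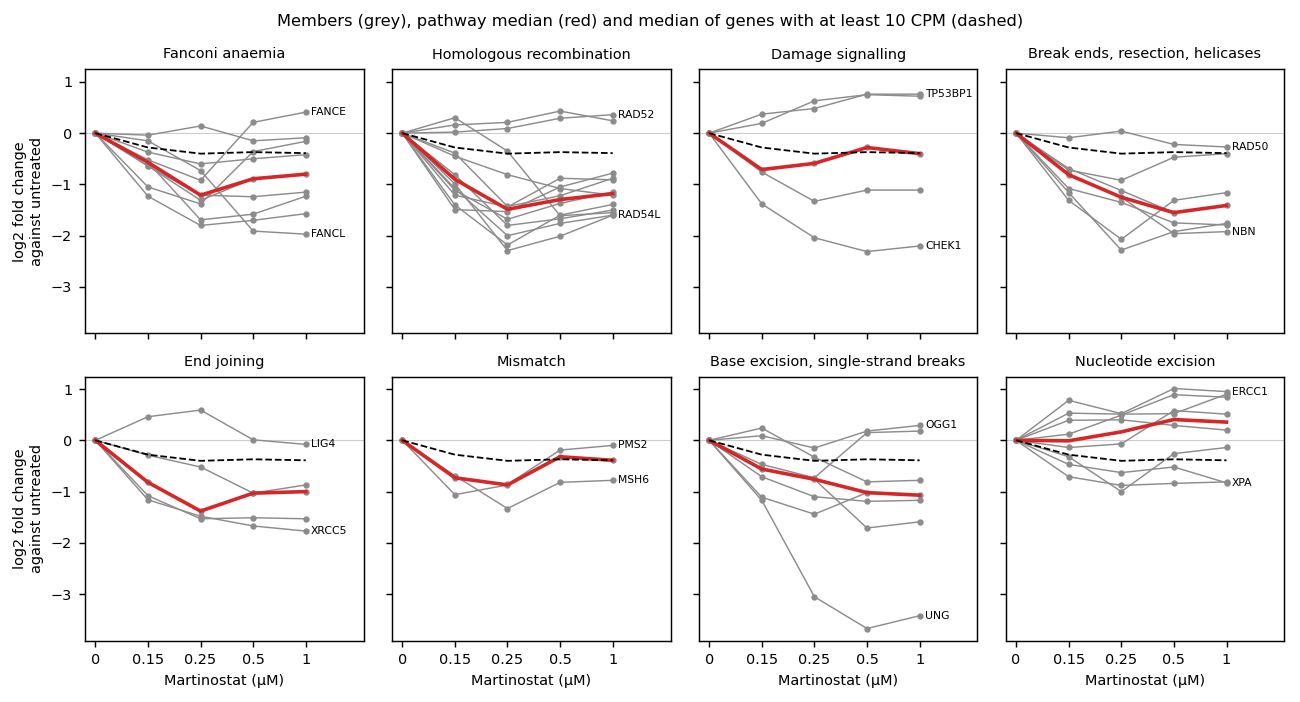
Log2 fold change against untreated cells (vertical axis) of each repair gene over the 4 martinostat concentrations (horizontal axis, doses evenly spaced), 1 panel per pathway. Thin grey lines are genes, the thick red line is the pathway's median, and the dashed line is the median of genes averaging at least 10 CPM. The medians of homologous recombination run through -0.90, -1.49, -1.29 and -1.18, and those of nucleotide excision repair through -0.01, 0.17, 0.40 and 0.35.

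The 8 pathways were also read with the other scalings at 1 µM. With library totals, the median was -0.45 for the Fanconi anaemia genes, -0.83 for homologous recombination, -1.05 for break ends, -0.64 for end joining and -0.71 for base excision. Signalling (-0.04) and mismatch repair (-0.04) then lay near 0, and nucleotide excision repair was at 0.71. Fanconi, recombination, break-end, end-joining and base excision medians were below 0 and that of nucleotide excision repair above 0 under all scalings run.

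Another 91 repair genes, listed by textbook role in the same 8 pathways, were counted beside the 56. At 1 µM, 51 of them (56%) were lower and 13 (14.3%) higher, against 27.5% and 38.8% of all tested genes, with a median log2 fold change of -0.58. In the Fanconi list of 10, 6 fell and 1 rose, from USP1, which removes ubiquitin from FANCD2 (-1.96), to SLX4, a scaffold of nucleases (1.48). The recombination list of 13 held 4 that fell and 4 that rose, from RAD51AP1 (-1.64) to SWI5 (1.61), both accessory factors of strand exchange. These shares of 30.8% each lay near those of all tested genes, while genes averaging at least 10 CPM were at 48.4% lower and 26.5% higher. Of 16 signalling genes, 11 fell and 2 rose, and the ends of the range were the mitotic-entry kinase WEE1 (-2.43) and the ubiquitin ligase RNF168 (1.38), which acts upstream of TP53BP1.

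The remaining lists gave 5 lower and 0 higher of 7 for break ends, from the nuclease DNA2 (-1.45) to the helicase RECQL (0.28, not called). End joining had 5 lower and 3 higher of 12, from SHLD2 (-1.78), a protein of the complex that acts after TP53BP1, to APLF (1.98), an end-joining accessory factor. These shares of 41.7% and 25% lay near those of genes averaging at least 10 CPM, 48.4% and 26.5%. Both mismatch genes, PMS1 (-1.34) and MLH3 (-1.21), fell. Of 15 base excision genes, 8 fell and 0 rose, from the glycosylase NEIL3 (-2.21) to the endonuclease APEX2 (0.35, not called). The 53.3% that fell also lay near the 48.4% of genes averaging at least 10 CPM. Of 16 nucleotide excision genes, 10 fell and 3 rose, from GTF2H1, a subunit of TFIIH (-2.26), to UVSSA, which acts at stalled polymerases (1.63). The median of these 16 was -0.62, where that of the 8 described above was 0.35.

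**Figure D4:**
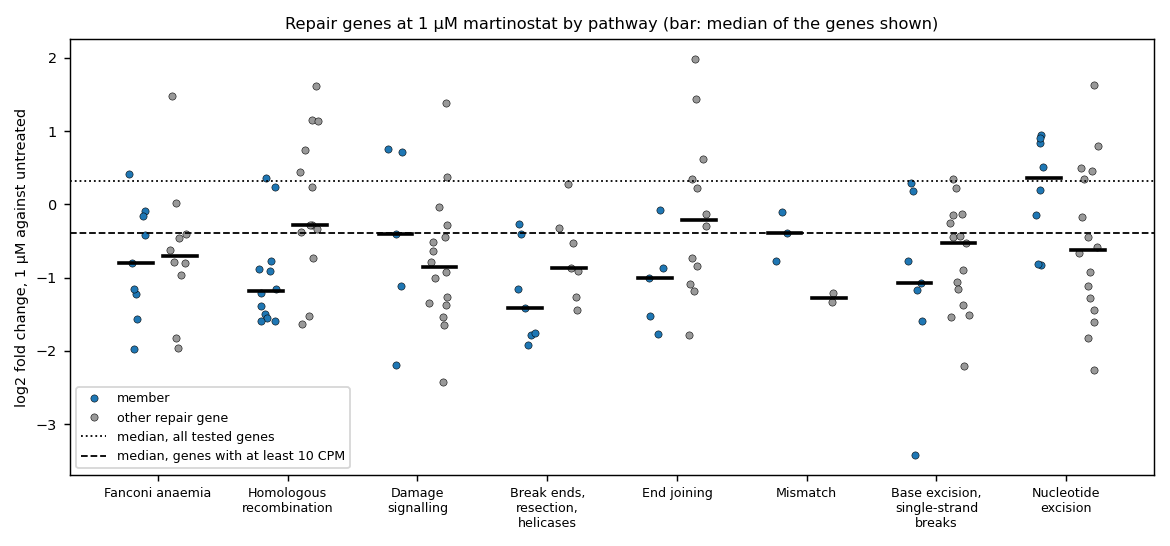
Log2 fold change at 1 µM against untreated cells (vertical axis) of the 56 repair genes (blue) and the 91 other repair genes (grey), by pathway on the horizontal axis. Each point is a gene, bars are the medians of the points, and the dotted and dashed lines are the medians of all tested genes and of genes averaging at least 10 CPM. In nucleotide excision repair the 8 genes have a median of 0.35 and the other 16 a median of -0.62.

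Genes of S phase and proliferation were lower as well. Of 18 such genes, among them the replicative helicase subunits MCM2 to MCM7, 14, 18, 16 and 16 were lower over the doses and 0 higher, with medians of -1.13, -2.15, -1.79 and -1.63. MCM7 went from 1280.2 ± 18.0 to 274 ± 18.6 CPM at 1 µM and the thymidylate synthase gene TYMS from 81.8 ± 6.02 to 2.80 ± 0.805 CPM (SD, n = 3). RRM2, a subunit of ribonucleotide reductase, was lower at 0.15 and 0.25 µM (-1.64 and -2.34) and was not called at 1 µM (-0.27). The part that fewer cells in S phase had in the repair genes' values was not tested.

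The promoters of the repair genes were read for the letters bound by E2F factors, the transcription factors that switch on S-phase genes, because many genes fell together. Promoter windows of RefSeq on GRCh38.p14, which run from 250 bases before to 50 bases after a start site, were found for 51 of the 56 genes. The letters TTTCCCGC, TTTCGCGC, TTTGCCGC or TTTGGCGC, on either strand, stood in 11 of these 51 (21.6%) and in 3.99% of 27305 genes with a window. The 11 genes were EXO1, FANCA, FANCC, FANCD2, MSH3, MSH6, PMS2, UNG, XPC, XRCC2 and XRCC6. At 1 µM, 9 of them were lower, 1 (XPC) was higher and 1 (PMS2) was not called, while among the 40 genes with a window and no match 23 were lower and 5 higher. A match is a run of letters and no measured binding site. The 27305 genes were not matched to the 51 in expression or base composition. A gene counted if any of its windows matched, and the 51 genes had 77 windows where the 27305 had 35116.

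The stretches below show 4 genes with different courses: UNG, with the largest fall, FANCC, which fell least among the Fanconi genes called at 1 µM, PMS2, which was lower only at 0.15 and 0.25 µM, and XPC, which rose. Each is printed 5′ to 3′ on the strand of its gene, and capitals mark the E2F-type letters. Of these windows, that of FANCC belongs to a start 109087 bases inside the annotated gene and that of UNG to one 575 bases inside.
UNG, chr12:109097922-109098147, plus strand: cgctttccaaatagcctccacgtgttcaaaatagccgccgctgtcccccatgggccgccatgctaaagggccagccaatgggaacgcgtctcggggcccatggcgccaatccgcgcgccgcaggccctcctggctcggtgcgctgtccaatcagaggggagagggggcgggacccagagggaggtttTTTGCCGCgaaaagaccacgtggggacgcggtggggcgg
FANCC, chr9:95317686-95317959, minus strand: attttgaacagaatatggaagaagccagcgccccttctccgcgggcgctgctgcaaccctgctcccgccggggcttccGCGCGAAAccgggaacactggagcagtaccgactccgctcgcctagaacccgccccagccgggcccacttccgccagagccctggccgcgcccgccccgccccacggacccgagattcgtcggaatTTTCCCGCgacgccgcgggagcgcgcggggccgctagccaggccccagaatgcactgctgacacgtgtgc
PMS2, chr7:6009131-6009284, minus strand: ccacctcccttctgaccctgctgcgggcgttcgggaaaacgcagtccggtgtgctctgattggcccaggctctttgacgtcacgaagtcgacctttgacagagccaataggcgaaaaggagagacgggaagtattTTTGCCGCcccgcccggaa
XPC, chr3:14178622-14178846, minus strand: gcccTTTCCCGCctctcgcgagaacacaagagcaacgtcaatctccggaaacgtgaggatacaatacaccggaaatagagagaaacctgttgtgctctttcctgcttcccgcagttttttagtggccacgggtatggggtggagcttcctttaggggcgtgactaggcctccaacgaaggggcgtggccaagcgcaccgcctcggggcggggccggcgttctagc
The match lay 63 bases before the start in UNG and 241 before it in XPC, and FANCC held 2 matches. Shorter stretches that end with the match are given for the nuclease EXO1, the ubiquitin target FANCD2, the mismatch sensor MSH6, the recombination gene XRCC2 and the Ku subunit XRCC6, all of them lower at 1 µM. The start used for MSH6 lies 87615 bases inside the annotated gene.
EXO1, chr1:241848183-241848215, plus strand: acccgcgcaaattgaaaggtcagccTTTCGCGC
FANCD2, chr3:10026413-10026442, plus strand: cgtcagagcggcgtcgggcctgGCGGGAAA
MSH6, chr2:47783126-47783155, plus strand: gcggagcgcgcctccccccagaTTTCCCGC
XRCC2, chr7:152676113-152676142, minus strand: cagttggtgaatggcgttggtgGCGGGAAA
XRCC6, chr22:41621315-41621344, plus strand: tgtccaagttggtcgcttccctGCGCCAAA
Every match in these 5 lay at the end of the printed stretch, in the sense letters for EXO1 and MSH6 and in the reverse complement for FANCD2, XRCC2 and XRCC6.

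The letters of the cell cycle homology region, TTTGAA, which serve genes of G2 phase and mitosis, stood in 8 of the 51 genes (15.7%) and in 18.2% of all genes with a window. The CCAAT letters stood in 26 of the 51 (51%) and in 39.7% of all genes with a window. Both were searched on either strand in the same windows of 300 bases.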

How the data were processed

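The authors sequenced poly(A) RNA from directional libraries of K562 cells. Per the study's methods, reads were trimmed with Trim Galore 0.6.10 and Trimmomatic, aligned to hg38 with HISAT2 2.2.1 and counted per GENCODE gene with featureCounts 1.5.3, with SAMtools 1.21 between these steps. The strand setting was not given in the sources used here, so shared exon stretches of overlapping genes are uncertain. The deposited count table held raw counts of 60649 genes in 15 libraries. The deposited FPKM tables, which the authors computed per library, served only as an alternative.

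The 56 genes and all other lists, and the tests, were chosen with earlier results of these data known. The counts entered edgeR 4.0.16 (R 4.3.3), with filterByExpr, TMM scaling, a single fit of all 15 libraries with group as the only term (10 residual degrees of freedom) and the robust quasi-likelihood F test. Standard errors were the log2 fold change divided by the root of F. P-values were adjusted by Benjamini and Hochberg over 23711 genes, at a threshold of 0.05, for each of 8 comparisons. The procedure was also run on simulated counts in which few genes changed, as many up as down, with a single spread for all genes. Those counts differ from these data, where many genes changed and unequally, so that run does not bear on the scaling. Alternatives used DESeq2 1.42.0, limma 3.58.1 on log2(FPKM + 1) and log2(FPKM + 0.1), other scalings and filters, a replicate block and each library left out. Equal replicate numbers had correlated deviations above 0.1 in all 3 pairs only between 0.25 and 0.5 µM. Libraries were treated as unpaired throughout, also between those doses, where the fit leaves that correlation out. Libraries of a group all differed by more than counting noise, with a chi-square over its degrees of freedom of 5.98 or more. Per library, values are given for the gene with the lowest and the gene with the highest log2 fold change at 1 µM in each pathway, for those that fell over 2-fold between 0.15 and 0.25 µM, and, chosen after their values were seen, for RAD51D, ATM and DDB2. Positions and overlaps came from a later GENCODE release on hg38, and promoter windows from RefSeq (GRCh38.p14), with at most 30 annotated UTR bases printed of each.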

Additional observations from a re-analysis of the deposited data

Results flagged for a closer look

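In 4 genes the effects at 0.15 and 1 µM against untreated cells had opposite signs, at least 1 of them passed the threshold, and edgeR's quasi-likelihood test of 1 µM against 0.15 µM called the difference. On the log2 scale RAD51D went from 0.30 to -1.55, a difference of -1.85 (edgeR, Benjamini-Hochberg adjusted p = 8.34e-09). FANCE went from -0.52 to 0.41, a difference of 0.93 (edgeR, Benjamini-Hochberg adjusted p = 0.000646). XPC went from -0.14 to 0.51, a difference of 0.65 (edgeR, Benjamini-Hochberg adjusted p = 0.00214). MUTYH, at no more than 5.54 CPM in any library, went from 0.24 to -0.78, a difference of -1.03 (edgeR, Benjamini-Hochberg adjusted p = 0.0103). Of the effects against untreated cells, that of FANCE at 0.15 µM and those of RAD51D, XPC and MUTYH at 1 µM passed the threshold.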

How the results depend on the processing

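With 3 libraries per group, bulk RNA and a single line, the spread covers these cultures only, and genes under 10 CPM rest on few counts. Of the calls against untreated cells, 21 of 39 at 0.15 µM, 31 of 46 at 0.25 µM, 36 of 43 at 0.5 µM and 36 of 43 at 1 µM were made under all 26 alternatives, as were 7 of 20 from 0.25 to 0.5 µM and 20 of 29 between 0.15 and 1 µM. The alternative that left out both replicates 3 at 0.25 and 0.5 µM was chosen after seeing the data.

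At 0.15 µM, 36 genes were lower in the values reported, against 21 with library totals and 22 and 21 with limma on log2(FPKM + 1) and log2(FPKM + 0.1). Genes called higher there went from 3 to 8 (library totals), 6 (TMM factors of well expressed genes), 5 (only the compared libraries in the fit), 6 (limma, pseudocount 0.1) and 5 (replicates 3 left out). At 0.25 µM they went from 4 to 11, 10, 8 (at least 10 counts in every library), 8 and 8 (limma with either pseudocount). At 0.5 µM they went from 6 to 12, 12, 11, 11 and 12 under these alternatives in the same order and to 10 without the replicates 3, and at 1 µM from 6 to 11, 12, 10, 10 and 11. From 0.15 to 0.25 µM, limma called 11 genes with either pseudocount, of which 11 and 10 were lower, and 1 gene was higher with RLE scaling, library totals, TMM factors of well expressed genes, the stricter filter, DESeq2 and limma with 0.1. From 0.25 to 0.5 µM, only the compared libraries gave 8 calls, 4 lower and 4 higher, and limma gave 8 higher with either pseudocount.

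Pathway medians at 1 µM are given for library totals, TMM factors of well expressed genes, and limma with pseudocounts 1 and 0.1. They were -0.45, -0.41, -0.20 and -0.45 for the Fanconi genes, -0.83, -0.79, -0.28 and -0.62 for recombination, -0.04, -0.01, -0.01 and -0.03 for signalling, -1.05, -1.01, -0.28 and -0.85 for break ends, -0.64, -0.61, -0.54 and -0.64 for end joining, -0.04, 0.00, -0.01 and -0.02 for mismatch repair, -0.71, -0.68, -0.41 and -0.67 for base excision and 0.71, 0.75, 0.30 and 0.53 for nucleotide excision. The stricter filter gave -0.91 for recombination, -0.12 for signalling, -1.13 for break ends, -0.72 for end joining, -0.11 for mismatch repair, -0.79 for base excision and 0.63 for nucleotide excision. Signalling was at -0.34 with RLE, DESeq2 and only the compared libraries and -0.35 without the replicates 3, and nucleotide excision at 0.41, 0.42, 0.42 and 0.40. PMS2 at 1 µM turned from -0.10 to 0.29 (edgeR, Benjamini-Hochberg adjusted p = 0.0403) with TMM factors of well expressed genes. This scaling also moved the median of all tested genes at 1 µM from 0.32 to 0.71. A cause beyond the scaling was not tested.

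Leaving out each library in turn gave 0 to 3 genes called higher at 0.15 µM (1 without any 1 untreated library, 0 without replicate 3 at 0.15 µM) and 2 to 5 at 0.25 µM (2 without untreated replicate 1). From 0.25 to 0.5 µM it gave 13 to 26 calls (13 without replicate 2 at 0.5 µM), 4 to 8 lower (4 without replicate 2 at 0.25 µM) and 7 to 19 higher (7 without replicate 2 at 0.5 µM), and the nucleotide excision median ran from 0.27 to 0.43. With the replicate number as a block, 39, 46, 43 and 44 genes were called at the 4 doses, 18 and 19 at the steps to 0.25 and 0.5 µM and 29 between 0.15 and 1 µM. Deviations of equal numbers correlated at 0.266, 0.268 and 0.579 between 0.25 and 0.5 µM and at 0.0918 or less between other groups.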
